A study of Homo sapiens with 9 samples.

Results

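The aldehyde dehydrogenase (ALDH) genes were described in PANC-1 cells, an established line from a human pancreatic ductal carcinoma. Members were picked by gene symbol, from a list drawn up with earlier results of these data known. They were 10 named genes, of which ALDH1A1, ALDH1A3, ALDH1B1, ALDH3A2, ALDH3B1, ALDH5A1, ALDH7A1, ALDH9A1 and ALDH18A1 were found among the 16750 genes of the expression table, and ALDH2 was not analysed here. All 9 found genes passed the filter on low values (at least 1 CPM in at least 3 libraries), as did 14554 genes in all. Another 8 ALDH genes in the table, listed further on, bring the family to 17.

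PANC-1 cells had been transduced with a lentiviral plasmid and kept under puromycin. The vector clones carried the empty plasmid pLV-EV, the SLC22A10_OE clones pLV-SLC22A10 and the SLC22A15_OE clones pLV-SLC22A15, so every group, the control included, shared the transduction and the selection. SLC22A10 and SLC22A15 belong to the SLC22 family of organic ion transporters. RNA of 3 libraries a group was sequenced after depletion of ribosomal RNA, and the labels do not say whether the libraries of a group came from separate clones, cultures or extractions, so the p-values speak only of the spread from library to library, and that spread may be technical.

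Aldehyde dehydrogenases oxidise aldehydes to carboxylic acids with NAD+ or NADP+, in most members through a catalytic cysteine. Members differ in place and in substrate: retinaldehyde in the cytosol for the ALDH1A enzymes, fatty aldehydes at membranes for ALDH3A2, and intermediates of amino acid and GABA breakdown in mitochondria for several others. High ALDH1A activity is widely used to sort stem-like cells from tumours, the pancreas among them, and ALDH1A1 and ALDH1A3 are the members usually named as its source.

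The transduced genes followed the labels. SLC22A10 had 85.4 ± 5.53 CPM (counts per 1000000 reads, mean ± SD, n = 3) in SLC22A10_OE, 1 read in all in the vector libraries and none in SLC22A15_OE. SLC22A15 had 75.9 ± 2.48 CPM in SLC22A15_OE, 6.11 ± 0.571 in vector and 3.84 ± 0.357 in SLC22A10_OE. Totals were 28351741 to 42942234 reads a library, so a gene at 1 CPM had 27.8 to 43.4 reads and a counting SD of 15.2% to 19.0%. Libraries vector 1, SLC22A10_OE 3 and SLC22A15_OE 1 stood apart with 0.00958% to 0.0151% of reads on mitochondrial ribosomal RNA, against 0.0454% to 0.0843% in the other 6, and each group holds 1 of them. Of 6 ductal markers, KRT8, KRT18, KRT19 and SOX9 reached 1 CPM, KRT7 did not and EPCAM was not analysed here. The summed ductal level was 436 to 475 CPM in vector, 532 to 593 in SLC22A10_OE and 287 to 321 in SLC22A15_OE. Markers of other cells were few in the table: CD14, the 1 leukocyte marker of 5 found, had 0.563 to 0.689 CPM in vector, 7.52 to 9.14 in SLC22A10_OE and 0.806 to 1.02 in SLC22A15_OE. CDH5, the 1 endothelial marker of 4 found, had 0.901 to 1.45, 6.24 to 7.65 and 2.52 to 2.86 CPM. The acinar marker CEL had 2.89 to 5.21 CPM over all libraries, the hepatocyte marker TF stayed under 1 CPM, and no fibroblast marker of 4 was found. The part of these markers in the results below was not tested. In bulk RNA, a change in the share of cells that express a gene and a change of RNA per cell cannot be told apart.

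In SLC22A10_OE against vector, ALDH1A1, ALDH3A2, ALDH3B1, ALDH5A1, ALDH7A1 and ALDH9A1 were higher, ALDH1A3 was lower, and ALDH1B1 and ALDH18A1 did not pass the test (limma on log2(CPM + 1), two-sided, adjusted p under 0.05 over all genes tested). The call of ALDH9A1 did not hold under most other settings. Background calls were frequent: 67.2% of all tested genes passed, 34.7% higher and 32.5% lower. The median log2 fold change of the 9 members was 0.45, against 0.0046 over all genes. In SLC22A15_OE against vector, ALDH1A1 and ALDH5A1 were higher, ALDH1A3 was lower and 6 members did not pass, against a background of 20.4%, 10.8% higher and 9.58% lower. The member median there was 0.04, against 0.0056 over all genes.

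Between the overexpressing groups, 7 of 9 members were lower in SLC22A15_OE than in SLC22A10_OE, ALDH1A3 was higher, and ALDH1B1 did not pass. Among all genes 62.9% passed in that comparison, 30.8% higher and 32.1% lower. The member median was -0.41, against -0.0020 over all genes. Both comparisons with vector use the same vector libraries, so the values of each are given side by side below and their likeness is not counted as a result. Scaling matters for small changes: with libraries centred on their medians, all log2 fold changes of SLC22A10_OE against vector shifted by -0.12, which split the calls into 3875 higher and 6233 lower, where the deposited scaling gave 5047 and 4728. Between the overexpressing groups centring gave 5798 higher and 3713 lower, where the deposited scaling gave 4484 and 4674. Against vector, centring the SLC22A15_OE libraries gave 1351 higher and 1683 lower, against 1572 and 1394 with the deposited scaling.

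**Figure D1:**
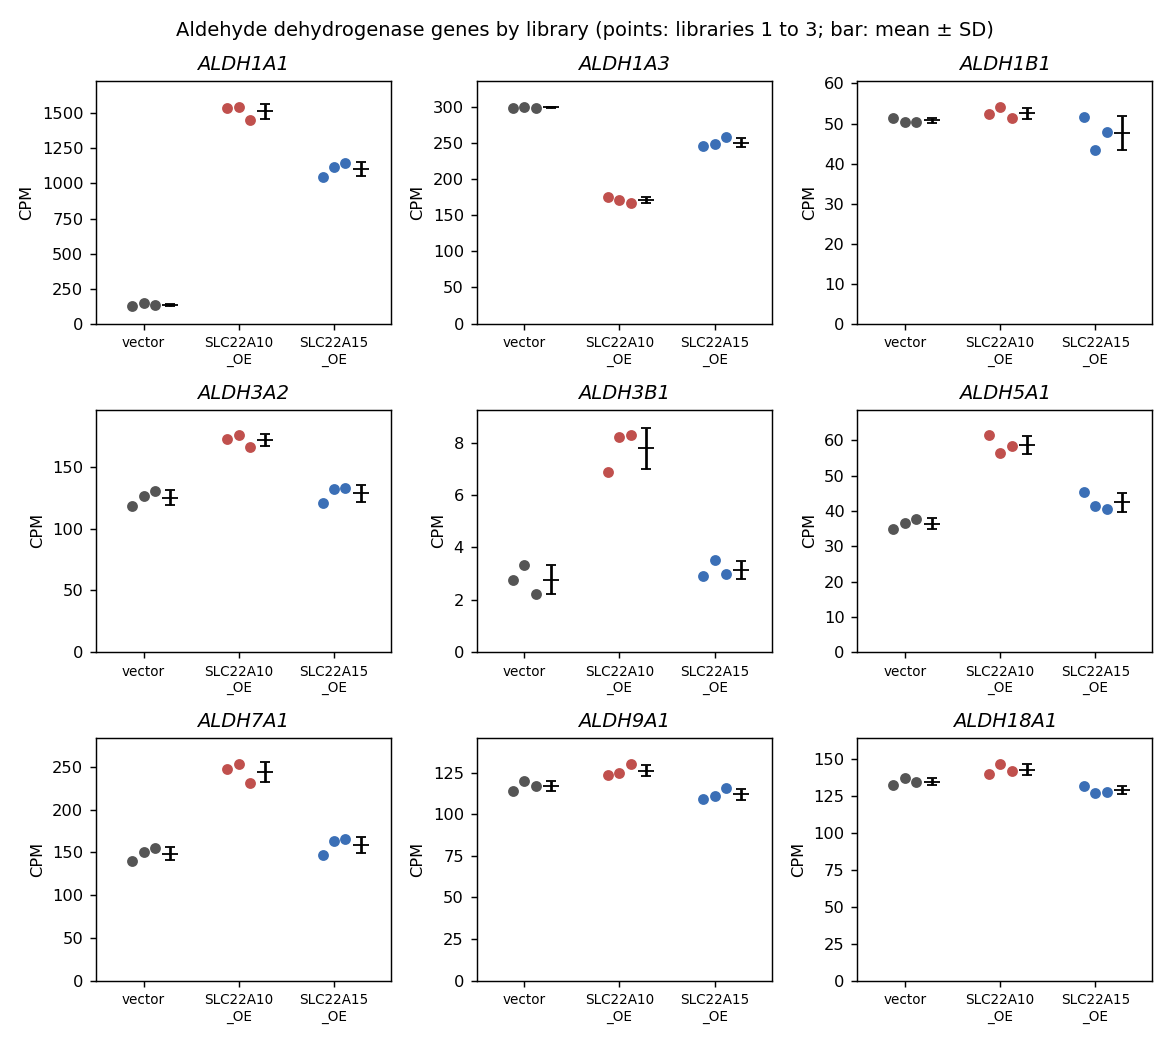
CPM of the 9 aldehyde dehydrogenase genes (1 panel a gene, y axis from 0) in the vector, SLC22A10_OE and SLC22A15_OE groups. Points are the 3 libraries, with the mean ± SD beside them. ALDH1A1 is far above vector in both overexpressing groups (134, 1514 and 1104 CPM on average), while ALDH1A3 falls in the reverse order (299, 171 and 250 CPM).

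ALDH1A1, the cytosolic retinaldehyde dehydrogenase, was the member that changed most in both overexpressing groups. Its level was 125, 144 and 133 CPM in vector libraries 1 to 3. In SLC22A10_OE it was 1541, 1546 and 1455 CPM, and in SLC22A15_OE 1045, 1121 and 1145 CPM. No groups overlapped, and the highest vector library was far below the lowest library of either overexpressing group. The means ± SD were 134 ± 9.28, 1514 ± 51.0 and 1104 ± 52.3 CPM. Against vector this was an 11.3-fold higher level in SLC22A10_OE (log2 fold change 3.49, 95% interval 3.37 to 3.61, limma adjusted p 8.77e-14) and an 8.24-fold higher level in SLC22A15_OE (3.04, 2.92 to 3.15, adjusted p 7.91e-13). SLC22A15_OE stayed below SLC22A10_OE, by 27.1% of the SLC22A10_OE mean (log2 difference -0.46, limma adjusted p 1.17e-05). In the authors' deposited table ALDH1A1 was number 3 by p-value of 16750 genes in SLC22A10_OE (log2 fold change 3.50) and number 2 in SLC22A15_OE (3.04). Without the 3 libraries low in mitochondrial ribosomal RNA the log2 fold changes of ALDH1A1 were 3.47 and 3.03.

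ALDH1A3 makes the same retinoic acid from retinaldehyde and was the member that fell in both overexpressing groups. It stood at 299, 300 and 299 CPM in vector, 175, 171 and 166 CPM in SLC22A10_OE, and 245, 249 and 258 CPM in SLC22A15_OE. All 3 groups were separate, vector highest and SLC22A10_OE lowest. The log2 fold change against vector was -0.80 in SLC22A10_OE (SE 0.041, limma adjusted p 3.26e-09), a level 42.8% lower. In SLC22A15_OE it was -0.25 (SE 0.041, limma adjusted p 5.51e-04), a level 16.2% lower, and the difference between the overexpressing groups was 0.55 (limma adjusted p 1.89e-07). The antisense gene AC015712.2 and the transcript AC015712.5 overlap exons of ALDH1A3, and reads of genes on opposite strands cannot be told apart where the counting ignored strand. LOC101927751, which overlaps ALDH1A3 as well, had 1.95 ± 0.312 CPM in vector.

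ALDH1B1 is the mitochondrial relative of ALDH1A1 and ALDH1A3. Its libraries ranged from 50.4 to 51.4 CPM in vector, 51.3 to 54.1 in SLC22A10_OE and 43.3 to 51.7 in SLC22A15_OE. These ranges overlapped in every comparison, and none passed (limma adjusted p 0.517 for SLC22A10_OE and 0.346 for SLC22A15_OE against vector, 0.0664 between them). Without library SLC22A15_OE 1 the difference between the overexpressing groups of ALDH1B1 passed, at -0.20 (limma adjusted p 0.0133), as it did without the 3 libraries low in mitochondrial ribosomal RNA (-0.22, adjusted p 0.00129). With centred libraries it was -0.05 (limma adjusted p 0.523). The 3 proteins are close relatives: translated coding sequences of GENCODE release 29 gave 70.3% identical residues between ALDH1A1 and ALDH1A3, 64.9% between ALDH1A1 and ALDH1B1, and 62.5% between ALDH1A3 and ALDH1B1. Of these 3 proteins, the pair most alike in sequence, ALDH1A1 and ALDH1A3, had transcripts that moved in opposite directions.

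The promoters of ALDH1A1 and ALDH1A3 are shown because their transcripts moved in opposite directions, and that of ALDH7A1 because it is the most abundant by CPM of the other members that rose. The stretches are the 250 bases before the start site in RefSeq (GRCh38.p14), 5′ to 3′ on the strand of the gene, with CCAAT boxes in capitals: chr9:72953054-72953303 on the minus strand for ALDH1A1, chr15:100879581-100879830 on the plus strand for ALDH1A3, and chr5:126595220-126595469 on the minus strand for ALDH7A1.
ALDH1A1: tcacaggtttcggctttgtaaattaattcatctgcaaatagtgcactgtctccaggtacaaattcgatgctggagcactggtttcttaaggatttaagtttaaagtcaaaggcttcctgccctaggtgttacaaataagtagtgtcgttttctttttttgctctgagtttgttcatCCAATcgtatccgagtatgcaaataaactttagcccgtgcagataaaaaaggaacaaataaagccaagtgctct
ALDH1A3: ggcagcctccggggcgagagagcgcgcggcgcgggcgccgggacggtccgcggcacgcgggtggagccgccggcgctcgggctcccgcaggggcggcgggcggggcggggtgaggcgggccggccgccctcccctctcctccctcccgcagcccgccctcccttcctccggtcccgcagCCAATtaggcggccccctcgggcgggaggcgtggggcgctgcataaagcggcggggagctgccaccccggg
ALDH7A1: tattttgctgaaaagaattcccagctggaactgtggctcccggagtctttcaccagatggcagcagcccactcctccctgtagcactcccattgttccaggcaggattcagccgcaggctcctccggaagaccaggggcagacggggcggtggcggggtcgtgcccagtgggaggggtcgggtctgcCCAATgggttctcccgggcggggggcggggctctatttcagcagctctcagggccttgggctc
The ALDH1A1 stretch had 38.4% GC and 6 CpG, that of ALDH1A3 82.4% GC and 38 CpG, and that of ALDH7A1 64.0% GC and 11 CpG. The median over all RefSeq promoters of this length was 58% GC and 11 CpG. A CCAAT box began at -74 in ALDH1A1, at -71 in ALDH1A3 and at -63 in ALDH7A1, counted from the start site. Searched on both strands, CCAAT was found in 5 of 9 members (with ALDH1B1 and ALDH3A2) and in 32.0% of 35116 promoters. TATAAA was in none of the 9 members and in 10.7% of all promoters, the ETS core GGAAGT in ALDH9A1 alone and in 19.5%, the antioxidant response core TGANNNNGC in ALDH3A2 alone and in 35.2%, and the hypoxia response core ACGTG in ALDH1B1, ALDH3A2 and ALDH18A1 and in 18.5%. ALDH3A2 and ALDH3B1 each had more than 1 start site in the table (11 stretches for the 9 members), and a match in any of them was counted. A match describes these letters and is not a site of binding.

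In GENCODE, ALDH1A1 lies on chromosome 9 (72900662 to 73080442, minus strand, GRCh38) and ALDH1A3 on chromosome 15 (100877714 to 100916626, plus strand). The promoter stretches shown above for both genes lie inside these spans, so the RefSeq start sites are not the outer ends of the GENCODE genes. Distances below were taken from the GENCODE spans, and ANXA1 is farther from the RefSeq start site of ALDH1A1. The neighbours of ALDH1A1 and ALDH1A3 did not all move with them. ANXA1, which encodes a phospholipid-binding protein and lies 71.3 kb from ALDH1A1, had 768 ± 61.3 CPM in vector, 819 ± 14.4 in SLC22A10_OE and 754 ± 58.5 in SLC22A15_OE, and did not pass against vector (limma adjusted p 0.201 and 0.825). On the other side ZFAND5, 535 kb away, was lower in SLC22A10_OE (log2 fold change -0.27, limma adjusted p 6.62e-04) and did not pass in SLC22A15_OE (-0.12, adjusted p 0.152). Beside ALDH1A3, LRRK1 at 2.59 kb was lower in SLC22A10_OE (-0.24, limma adjusted p 0.0153) and did not pass in SLC22A15_OE (-0.05, adjusted p 0.699). ASB7, 226 kb to the other side of ALDH1A3, was higher in SLC22A10_OE (0.23, limma adjusted p 0.00364). LINS1, 274 kb to that side, was lower in SLC22A10_OE (-0.48, limma adjusted p 5.45e-04), as was the overlapping LOC101927751. Neither ASB7 nor LINS1 passed in SLC22A15_OE (limma adjusted p 0.928 and 0.647). LOC101927751 did pass there, just inside the threshold, and was lower (-0.48, limma adjusted p 0.0488), as ALDH1A3 was. Its value in SLC22A10_OE was -0.58 (limma adjusted p 0.00582).

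**Figure D2:**
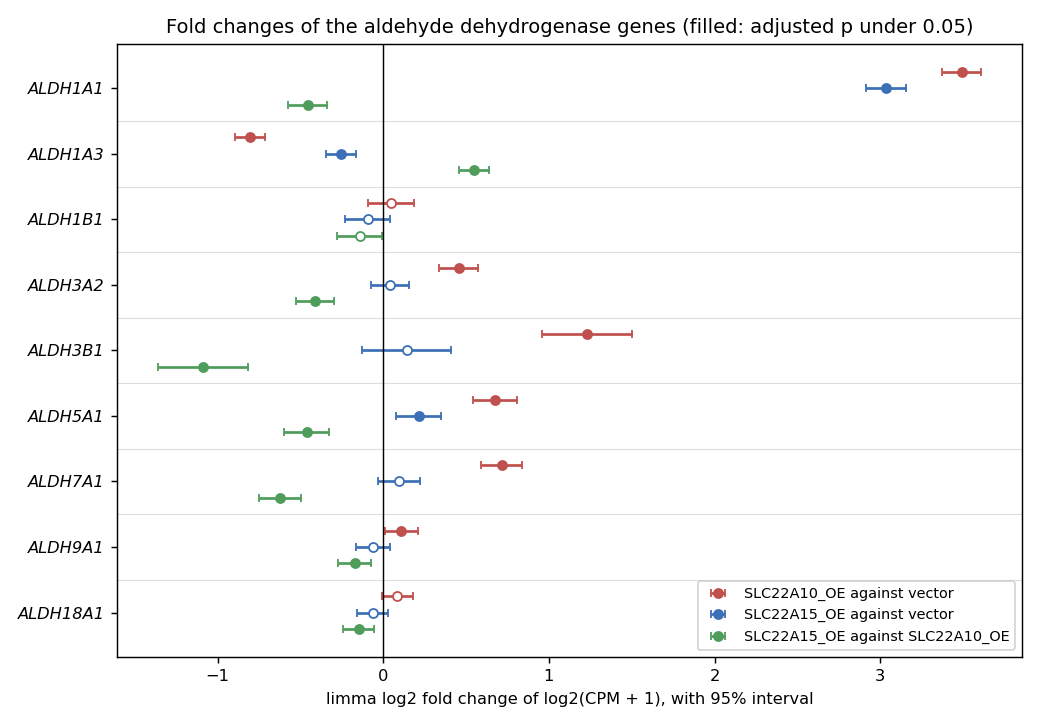
Log2 fold change (x axis, limma on log2(CPM + 1), with 95% interval) of the 9 genes in 3 comparisons, SLC22A10_OE against vector, SLC22A15_OE against vector and SLC22A15_OE against SLC22A10_OE. Filled points had an adjusted p under 0.05. ALDH1A1 stands at 3.49 and 3.04 against vector, and the other values against vector run from -0.80 to 1.23.

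Levels of different genes were set side by side per kilobase of coding length, and again per kilobase of merged exons. Per coding kilobase the vector order opened with ALDH1A3 (195 ± 0.358), followed by ALDH7A1 (89.4 ± 4.75), ALDH1A1 (89.1 ± 6.17) and ALDH3A2 (82.1 ± 3.996). ALDH1A3 stood clear of all others, and each neighbouring pair of the next 3 overlapped. ALDH9A1 (75.2 ± 2.00), ALDH18A1 (56.6 ± 1.04), ALDH1B1 (32.7 ± 0.370), ALDH5A1 (22.2 ± 0.913) and ALDH3B1 (1.97 ± 0.398) followed among the members. In SLC22A10_OE the order opened with ALDH1A1 (1007 ± 33.9), ALDH7A1 (147 ± 6.88), ALDH3A2 (113 ± 3.08) and ALDH1A3 (111 ± 2.86), the last 2 of which overlapped. In SLC22A15_OE it opened with ALDH1A1 (734 ± 34.8), ALDH1A3 (163 ± 4.12) and ALDH7A1 (95.4 ± 5.93), with no overlap between neighbours.

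The choice of length moved ALDH7A1, whose merged exons of 17970 bases include long alternative ones: per exon kilobase it was number 9 of the family in vector, and not number 2. ALDH1A3 in vector and ALDH1A1 in both overexpressing groups stood first by either length. ALDH1A1 made up 12.5% ± 0.697 of the summed level of the 17 family genes per coding kilobase in vector, 59.6% ± 0.493 in SLC22A10_OE and 55.0% ± 0.909 in SLC22A15_OE. Per exon kilobase the shares were 18.9%, 71.6% and 66.6%. In plain CPM the 9 members summed to 1048 ± 27.1 in vector, 2489 ± 69.3 in SLC22A10_OE and 1976 ± 69.3 in SLC22A15_OE. With ALDH1A1 left out, the sums of the other 8 were 914 ± 19.3, 975 ± 18.7 and 872 ± 17.9 CPM. As a sum the other 8 differed far less between groups than ALDH1A1 alone, but changes in opposite directions offset each other in it. In SLC22A10_OE, ALDH1A3 was 128 CPM below vector, while ALDH7A1 was 95.7 and ALDH3A2 46.6 CPM above it.

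**Figure D3:**
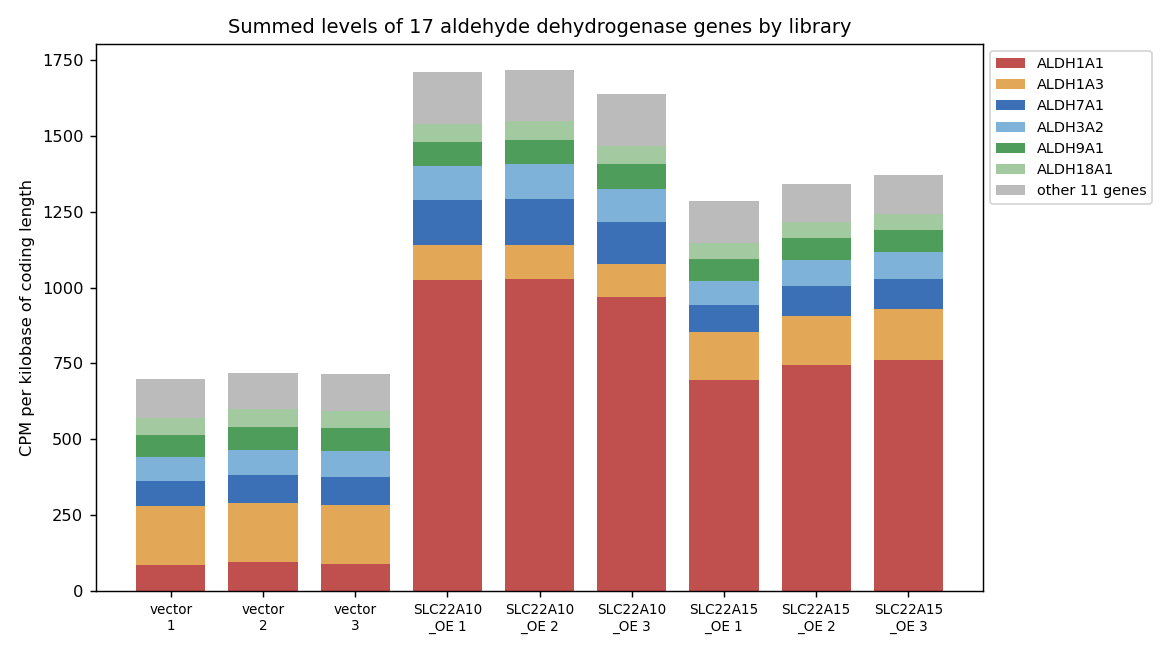
CPM per kilobase of coding length, stacked over the 17 aldehyde dehydrogenase genes (y axis from 0), for each of the 9 libraries. The 6 genes named in the key are drawn apart and the other 11 together. The ALDH1A1 segment fills 11.9% to 13.3% of the bar in vector and 54.0% to 59.9% in the overexpressing groups.

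Of 11 tested genes that convert or bind retinoids, 5 were higher and 3 lower in SLC22A10_OE, a total near the 67.2% called among all genes, with a median log2 fold change of 0.27. DHRS3, which reduces retinaldehyde back to retinol, rose from 14.5 ± 0.963 CPM in vector to 38.4 ± 2.76 in SLC22A10_OE (log2 fold change 1.34, limma adjusted p 7.12e-09). RDH10, which makes retinaldehyde from retinol, fell from 15.04 ± 0.887 to 7.91 ± 0.631 CPM (-0.85, adjusted p 1.30e-06). These enzymes run the step between retinol and retinaldehyde in opposite senses, and neither passed in SLC22A15_OE (DHRS3 0.07, adjusted p 0.557, and RDH10 -0.10, adjusted p 0.467, by limma). STRA6, a receptor for retinol uptake, was higher in SLC22A10_OE (0.75, limma adjusted p 7.94e-06) and stood at -0.06 in SLC22A15_OE (adjusted p 0.686).

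In SLC22A15_OE, 4 of the 11 were higher and 1 lower, where 20.4% of all genes were called, with a median of 0.17. CYP26B1, which degrades retinoic acid, had 4.49 ± 0.822 CPM in vector, 8.65 ± 0.634 in SLC22A10_OE and 7.73 ± 0.693 in SLC22A15_OE. It was higher than vector in both (log2 fold changes 0.82 and 0.68, limma adjusted p 3.58e-05 and 9.11e-04). DGAT1, which can esterify retinol beside its main work on triglycerides, was higher in SLC22A10_OE (0.51, limma adjusted p 0.00189) and in SLC22A15_OE (0.48, adjusted p 0.0106). The reductase DHRS4 was higher in SLC22A10_OE (0.32, limma adjusted p 0.00172). DHRS4 also rose by 0.29 in SLC22A15_OE (limma adjusted p 0.0140), a call lost without vector library 2 (adjusted p 0.0598). RDH11, another retinaldehyde reductase, rose by 0.20 there (limma adjusted p 0.0235), and its call was lost without any one of vector 1, vector 3, SLC22A15_OE 2 or SLC22A15_OE 3 (adjusted p 0.0547 to 0.0795).

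Among 16 tested retinoic acid receptors and response genes, 9 were higher and 3 lower in SLC22A10_OE (median 0.38), and 2 higher and 2 lower in SLC22A15_OE (median 0.03). Both totals lie near the shares of all genes called, 67.2% and 20.4%. The list shares STRA6, DHRS3 and CYP26B1 with the one above. RARRES3, known as a retinoid-induced gene, had 0.306 ± 0.0831 CPM in vector, 7.55 ± 0.769 in SLC22A10_OE and 1.36 ± 0.137 in SLC22A15_OE (limma adjusted p 5.02e-10 and 9.90e-05 against vector). TGM2, a transglutaminase that retinoic acid induces in several cell types, went the other way, from 291 ± 24.9 CPM in vector to 95.7 ± 6.56 in SLC22A10_OE and 227 ± 13.2 in SLC22A15_OE (log2 fold changes -1.59 and -0.36, limma adjusted p 7.11e-10 and 0.00222). RARRES1, also named for its induction by retinoids, fell in SLC22A10_OE (-1.19, limma adjusted p 2.14e-07) and had 4.54 ± 0.140 CPM in SLC22A15_OE against 4.97 ± 0.344 in vector. NRIP1, a corepressor of nuclear receptors, had its lowest level in SLC22A15_OE (-1.28, limma adjusted p 2.39e-07), from 41.7 ± 4.61 to 16.5 ± 1.06 CPM, with 27.9 ± 1.16 CPM in SLC22A10_OE (-0.56, adjusted p 5.82e-05).

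**Figure D4:**
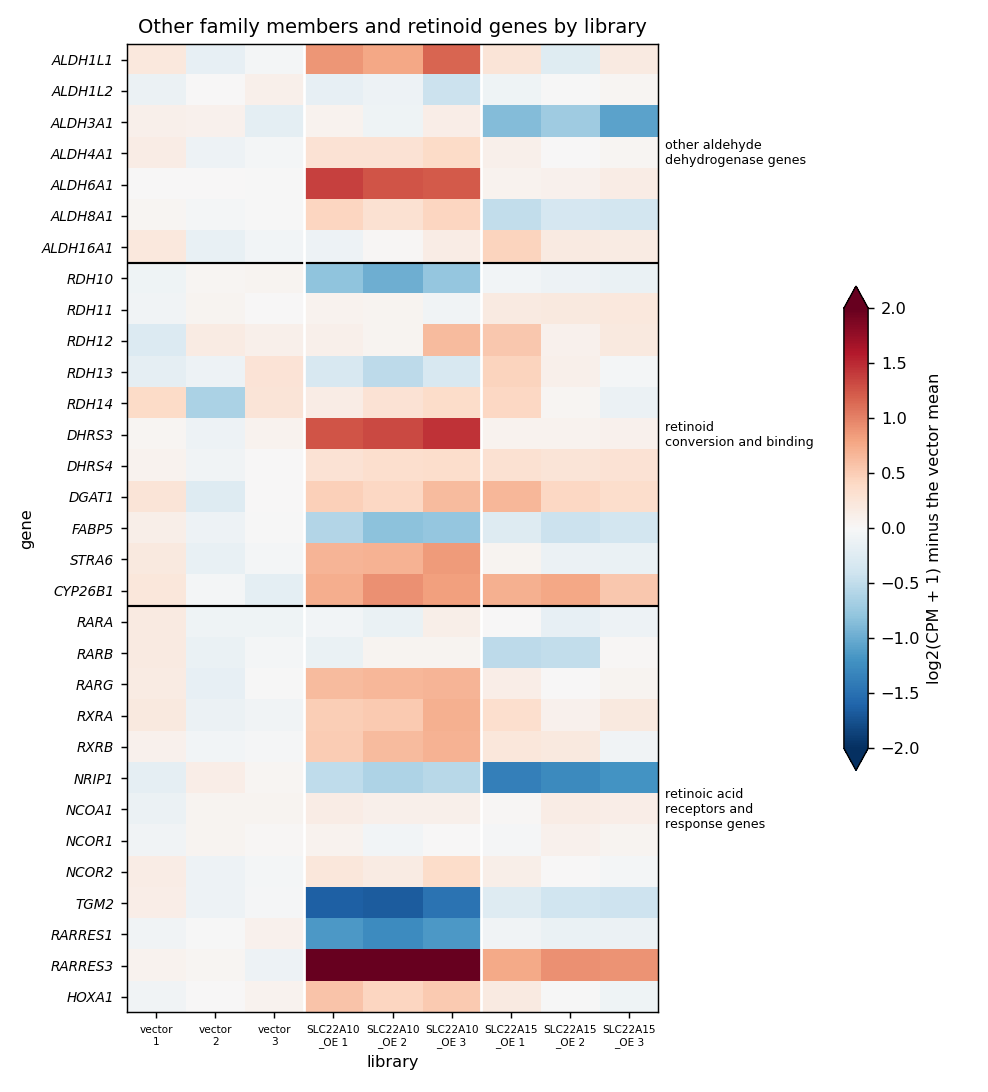
Log2(CPM + 1) minus the mean of the vector libraries (colour, from -2 to 2, larger values shown at the end colours) for 31 genes (y axis) in the 9 libraries (x axis): 7 other aldehyde dehydrogenase genes, 11 genes of retinoid conversion and binding, and the 13 of 16 receptor and response genes not already shown. DHRS3 and RARRES3 stand above vector and RDH10 and TGM2 below it in all SLC22A10_OE libraries.

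ALDH3A2 oxidises long-chain fatty aldehydes at the endoplasmic reticulum and in peroxisomes, and its loss causes Sjögren-Larsson syndrome. Its level was 118, 127 and 130 CPM in vector, 173, 176 and 166 CPM in SLC22A10_OE, and 121, 132 and 133 CPM in SLC22A15_OE. SLC22A10_OE stood above both other groups, which overlapped. The log2 fold change was 0.45 in SLC22A10_OE (limma adjusted p 6.98e-06) and 0.04 in SLC22A15_OE (95% interval -0.07 to 0.16, adjusted p 0.654), and the difference between the overexpressing groups was -0.41 (adjusted p 2.06e-05).

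ALDH3B1, which acts on aldehydes from lipid peroxidation, was the least abundant member. It had 2.77, 3.32 and 2.20 CPM in vector, 6.87, 8.21 and 8.27 CPM in SLC22A10_OE, and 2.89, 3.51 and 2.99 CPM in SLC22A15_OE, from 83 to 287 reads a library. As with ALDH3A2, only SLC22A10_OE stood apart. Its ALDH3B1 mean was 2.82-fold that of vector (log2 fold change 1.23, limma adjusted p 1.86e-06), and the difference of SLC22A15_OE from SLC22A10_OE was -1.09 (adjusted p 7.49e-06). The size depends on the pseudocount at this level: the log2 fold change was 0.72 with 5 CPM and 1.49 in the edgeR table deposited by the authors. ALDH3A2 and ALDH3B1 proteins shared 53.5% of aligned residues.

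Of 9 tested genes that supply fatty aldehydes or their precursors, 5 were higher and 3 lower in SLC22A10_OE (median 0.18), and 2 higher and 1 lower in SLC22A15_OE (median -0.11). Among all genes 67.2% were called in the former comparison, 34.7% higher and 32.5% lower, and 20.4% in the latter. PHYH, the peroxisomal enzyme of phytanic acid oxidation, rose from 14.8 ± 0.547 to 27.9 ± 0.424 CPM in SLC22A10_OE (log2 fold change 0.87, limma adjusted p 1.93e-07) and had 16.8 ± 0.997 in SLC22A15_OE (0.17, adjusted p 0.107). GNPAT, the first enzyme of ether lipid synthesis, was higher in both (0.60 and 0.36, limma adjusted p 9.44e-07 and 4.52e-04). The fatty acyl reductases differed in SLC22A10_OE, where FAR1 fell by 0.57 and FAR2 rose by 0.34 (limma adjusted p 3.60e-05 and 0.00156), and in SLC22A15_OE FAR2 rose by 0.35 (adjusted p 0.00534). The ceramidase ACER3 fell by 0.59 in SLC22A10_OE (limma adjusted p 8.89e-07). The sphingosine phosphate lyase SGPL1, a direct source of hexadecenal, was higher in SLC22A10_OE (0.18, limma adjusted p 0.0119). SGPL1 was lower in SLC22A15_OE (-0.19, limma adjusted p 0.0304). The latter call was lost without any one of vector 2, vector 3, SLC22A15_OE 1, 2 or 3 (adjusted p 0.0564 to 0.107).

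ALDH5A1, the mitochondrial succinic semialdehyde dehydrogenase, completes GABA breakdown. It stood at 34.8, 36.6 and 37.8 CPM in vector, 61.4, 56.5 and 58.4 CPM in SLC22A10_OE, and 45.4, 41.3 and 40.5 CPM in SLC22A15_OE. The 3 groups did not overlap, with SLC22A15_OE between the other groups. In SLC22A10_OE the log2 fold change was 0.68 (limma adjusted p 8.22e-07). In SLC22A15_OE it was 0.21 (adjusted p 0.0282), and this call was lost without any one of vector 1, vector 2, SLC22A15_OE 1 or SLC22A15_OE 2 (limma adjusted p 0.0555 to 0.109). It was also lost without the 3 libraries low in mitochondrial ribosomal RNA, where the value was 0.13 (limma adjusted p 0.0810), and with centred libraries (adjusted p 0.0529). GPLD1 overlaps exons of ALDH5A1 on the opposite strand and had 4.02 ± 0.447 CPM in vector, 3.95 ± 0.274 in SLC22A10_OE and 4.95 ± 0.378 in SLC22A15_OE.

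Of 8 tested genes of GABA metabolism, 3 were higher and 2 lower in SLC22A10_OE (median -0.07), and 1 was higher and 2 lower in SLC22A15_OE (median -0.08), beside 67.2% and 20.4% of all genes called. ABAT, the GABA transaminase that makes the substrate of ALDH5A1, rose from 3.76 ± 0.194 CPM in vector to 18.2 ± 0.284 in SLC22A10_OE and 5.87 ± 0.581 in SLC22A15_OE (log2 fold changes 2.01 and 0.53, limma adjusted p 9.57e-10 and 8.41e-04). GAD1, which makes GABA from glutamate, rose in SLC22A10_OE (0.80, limma adjusted p 2.31e-05) and had -0.07 in SLC22A15_OE (adjusted p 0.705). SUCLG2, a subunit of succinyl-CoA ligase, rose in SLC22A10_OE (0.65, limma adjusted p 1.72e-06).

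ALDH7A1 (antiquitin) oxidises an intermediate of lysine breakdown and betaine aldehyde, and its loss causes pyridoxine-dependent epilepsy. Its level was 140, 150 and 156 CPM in vector, 248, 253 and 231 CPM in SLC22A10_OE, and 147, 163 and 166 CPM in SLC22A15_OE. SLC22A10_OE was separate from both other groups, which overlapped. The log2 fold change was 0.71 in SLC22A10_OE (limma adjusted p 2.58e-07) and 0.09 in SLC22A15_OE (95% interval -0.03 to 0.22, adjusted p 0.304), and its difference from SLC22A10_OE was -0.62 (adjusted p 1.43e-06). Without the 3 libraries low in mitochondrial ribosomal RNA, the SLC22A15_OE value of ALDH7A1 was 0.10 and passed (limma adjusted p 0.0410).

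ALDH9A1 takes part in carnitine synthesis by oxidising trimethylaminobutyraldehyde. Its levels lay close together, at 114, 120 and 117 CPM in vector, 124, 125 and 130 CPM in SLC22A10_OE, and 109, 111 and 116 CPM in SLC22A15_OE. SLC22A10_OE did not overlap with the others, but by a margin of a few CPM. The log2 fold change in SLC22A10_OE was 0.11 with an adjusted p of 0.0498 by limma, just inside the threshold. The call of ALDH9A1 was lost with edgeR and DESeq2 on recovered reads (adjusted p 0.0636 and 0.0590), and without any one of vector 1, vector 3, SLC22A10_OE 1, 2 or 3, SLC22A15_OE 2 or 3. With centred libraries the value was -0.01 (limma adjusted p 0.858). In the authors' deposited table its FDR was 0.0594. Against vector the SLC22A15_OE value was -0.06 (limma adjusted p 0.398), and between the overexpressing groups it was -0.17 (adjusted p 0.00566), a difference that centring brought to -0.08 (adjusted p 0.164).

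Of 9 tested genes of lysine breakdown, betaine and carnitine synthesis, 4 were higher and 1 lower in SLC22A10_OE (median 0.14), a total below the 67.2% of all genes called. None passed in SLC22A15_OE by limma, edgeR or DESeq2 (median -0.01), where 1 of the 9, SHMT1, had an unadjusted limma p under 0.05. CHDH, the choline dehydrogenase that makes betaine aldehyde, rose from 3.94 ± 0.0816 to 6.87 ± 0.293 CPM in SLC22A10_OE (log2 fold change 0.67, limma adjusted p 1.66e-05). TMLHE, the first enzyme of carnitine synthesis, rose by 0.46 (limma adjusted p 2.34e-04) and SHMT1, the serine hydroxymethyltransferase that supplies a carnitine precursor in the cytosol, by 0.29 (adjusted p 0.00128). AADAT, an aminoadipate aminotransferase of lysine breakdown, fell from 7.31 ± 0.881 to 3.56 ± 0.786 CPM (-0.88, limma adjusted p 4.65e-05). In SLC22A15_OE the most abundant members of the list, SHMT2 and DLST, had values of -0.05 and 0.01 (limma adjusted p 0.581 and 0.886).

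ALDH18A1 is the unusual member: it is a reductive enzyme that makes the precursor of proline and ornithine from glutamate. Its level was 132, 137 and 135 CPM in vector, 140, 147 and 142 CPM in SLC22A10_OE, and 132, 127 and 128 CPM in SLC22A15_OE. The groups of ALDH18A1 did not overlap in any comparison, yet neither comparison with vector passed (log2 fold changes 0.08 and -0.06, limma adjusted p 0.0997 and 0.346). SLC22A15_OE was lower than SLC22A10_OE (-0.15, adjusted p 0.00908), which became -0.05 with centred libraries (adjusted p 0.305). A search for the catalytic signatures in the translated sequences found the cysteine signature in 7 of 9 members, all but ALDH7A1 and ALDH18A1, and the glutamate signature in 8, all but ALDH18A1. Where both were found, the 2 residues lay 34 positions apart. Each search used a fixed pattern of residues around the catalytic one, so a missing match does not show that the residue itself is absent.

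Of 7 tested genes of proline and ornithine synthesis, 3 were higher and 2 lower in SLC22A10_OE (median 0.02), and 2 higher and 2 lower in SLC22A15_OE (median -0.10), beside 67.2% and 20.4% of all genes called. PYCR3, a reductase of the last step of proline synthesis, rose by 0.39 in SLC22A10_OE and by 0.60 in SLC22A15_OE (limma adjusted p 0.00239 and 4.26e-04). GLUD1, a glutamate dehydrogenase, fell from 151 ± 2.42 CPM to 128 ± 5.99 in SLC22A10_OE and 131 ± 1.22 in SLC22A15_OE (log2 fold changes -0.25 and -0.21, limma adjusted p 3.90e-04 and 0.00542).

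Outside the named members, the table held ALDH1A2, ALDH1L1, ALDH1L2, ALDH3A1, ALDH4A1, ALDH6A1, ALDH8A1 and ALDH16A1, and ALDH3B2 was not analysed here. ALDH1A2, the remaining retinaldehyde dehydrogenase of the ALDH1A group, had 0.156 to 0.468 CPM and was not tested. ALDH1L1 passed the filter through SLC22A10_OE alone, so it is left out of the counts here and gets no test. Of the other 6 tested, 3 were higher and none lower in SLC22A10_OE (median 0.18), where 34.7% of all genes were higher and 32.5% lower. In SLC22A15_OE none of the 6 was higher and 2 were lower (median 0.02), where 10.8% of all genes were higher and 9.58% lower. Between the overexpressing groups 4 were lower in SLC22A15_OE (median -0.53), against 32.1% of all genes. With an unadjusted limma p under 0.05, 0 of the 6 were lower in SLC22A10_OE and 1, ALDH16A1, was higher in SLC22A15_OE, and edgeR and DESeq2 also called 0 in each.

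ALDH6A1, the methylmalonate semialdehyde dehydrogenase of valine breakdown, had the clearest change among these. It stood at 25.01, 25.01 and 24.63 CPM in vector, 66.1, 60.9 and 59.6 CPM in SLC22A10_OE, and 26.2, 26.5 and 27.7 CPM in SLC22A15_OE. SLC22A10_OE was far above the others (log2 fold change 1.29, limma adjusted p 1.42e-09), and the SLC22A15_OE value was 0.10 (adjusted p 0.261) with a difference of -1.18 between the overexpressing groups (adjusted p 7.87e-09). BBOF1 overlaps exons of ALDH6A1 on the opposite strand. ALDH4A1, which oxidises an intermediate of proline breakdown, rose from 33.4 ± 3.24 to 41.8 ± 1.64 CPM in SLC22A10_OE (0.32, limma adjusted p 0.00153) and had 34.6 ± 1.23 in SLC22A15_OE.

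ALDH3A1, known for detoxifying aldehydes in the cornea, was the one that fell in SLC22A15_OE with over 2 CPM in vector. It had 3.08, 3.04 and 2.33 CPM in vector, 3.00, 2.58 and 3.17 in SLC22A10_OE, and 1.08, 1.33 and 0.806 in SLC22A15_OE. SLC22A15_OE was below both other groups, which overlapped (log2 fold changes against vector -0.88, limma adjusted p 2.51e-04, and 0.04 in SLC22A10_OE, adjusted p 0.798). ALDH3A1 lies 60.4 kb from ALDH3A2 on chromosome 17, and the neighbours differed: ALDH3A2 was higher in SLC22A10_OE alone among the comparisons with vector, and ALDH3A1 lower in SLC22A15_OE alone, with differences between the overexpressing groups of -0.41 for ALDH3A2 and -0.92 for ALDH3A1 (limma adjusted p 2.06e-05 and 3.95e-05).

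ALDH8A1 and ALDH1L1 were near 1 CPM or below it, so their values rest on few reads. ALDH8A1 had 35 to 39 reads a library in vector, 49 to 68 in SLC22A10_OE and 14 to 25 in SLC22A15_OE. It was higher in SLC22A10_OE (log2 fold change 0.39, limma adjusted p 0.00601) and lower in SLC22A15_OE (-0.40, adjusted p 0.0182), and the second call was lost without vector 3 or SLC22A15_OE 1 (adjusted p 0.0545 and 0.0732) and without the 3 libraries low in mitochondrial ribosomal RNA (-0.33, adjusted p 0.118). ALDH1L1, a folate enzyme, had 2 to 12 reads a library in vector, 36 to 46 in SLC22A10_OE and 0 to 15 in SLC22A15_OE. In CPM it stood at 0.195 ± 0.159 in vector, 1.29 ± 0.325 in SLC22A10_OE and 0.253 ± 0.221 in SLC22A15_OE. ALDH1L2 and ALDH16A1 did not pass against vector (limma adjusted p 0.0814 and 0.932 for ALDH1L2, 0.815 and 0.0801 for ALDH16A1), and ALDH16A1 passed in SLC22A15_OE without vector 1 (0.37, adjusted p 0.00678) and without the 3 libraries low in mitochondrial ribosomal RNA (0.28, adjusted p 2.01e-04). With centred libraries ALDH1L2 was lower in SLC22A10_OE (-0.35, limma adjusted p 0.0133) and higher in SLC22A15_OE than there (0.31, adjusted p 0.0283). Between the overexpressing groups ALDH16A1 had 0.24 (limma adjusted p 0.0525), and passed by edgeR (adjusted p 0.0488), by DESeq2 (0.0390) and without any one of vector 1, vector 2, SLC22A10_OE 3 or SLC22A15_OE 3. It also passed with centred libraries (0.33, adjusted p 0.00815), with those 2 groups alone (adjusted p 0.0208) and without the 3 libraries low in mitochondrial ribosomal RNA (0.21, adjusted p 0.00136).

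Of 14 tested alcohol dehydrogenases and aldehyde or ketone reductases, 6 were higher and 4 lower in SLC22A10_OE (median 0.18), and none was higher and 3 were lower in SLC22A15_OE (median -0.07). Both totals are close to the shares of all genes called, 67.2% and 20.4%. Of the 14, 1 was higher in SLC22A15_OE with an unadjusted limma p under 0.05, and 0 by edgeR or DESeq2. AKR1C1, a ketosteroid and aldehyde reductase, fell from 287 ± 3.02 CPM in vector to 158 ± 6.76 in SLC22A10_OE and 216 ± 3.89 in SLC22A15_OE (log2 fold changes -0.85 and -0.41, limma adjusted p 3.33e-09 and 1.84e-05). AKR1C2, whose sequence is nearly the same so that reads could be split between them, had -0.86 and -0.38 (limma adjusted p 4.43e-07 and 0.00244). AKR1A1, the general aldehyde reductase, rose in SLC22A10_OE (0.60, limma adjusted p 1.89e-06), as did catalase, CAT, which can oxidise ethanol (0.63, adjusted p 3.30e-06). The carbonyl reductase CBR3 was higher in SLC22A10_OE (0.31, limma adjusted p 0.0184) and lower in SLC22A15_OE (-0.48, adjusted p 0.00512). In the latter, CAT stood at 0.17 (limma adjusted p 0.0926) among the 11 that did not pass.

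Patterns like those of ALDH1A1 and ALDH1A3 were looked for by Pearson r of log2(CPM + 1) over the 9 libraries, among 1062 and 1063 genes with a named symbol that reached a mean of 5 CPM in the highest group and whose group means spanned at least 1 on the log2 scale. With 3 groups of libraries such an r mostly compares 3 group means, and genes are listed as a description with no test. Most like ALDH1A1 was EHF (r = 0.999), an ETS factor of epithelial cells, with 5.37 ± 0.225 CPM in vector, 468 ± 15.5 in SLC22A10_OE and 307 ± 17.0 in SLC22A15_OE. INSIG1 (0.997), which holds back sterol synthesis, PRKAR2B (0.995), a regulatory subunit of protein kinase A, FBXO33 (0.995) and the cationic amino acid transporter SLC7A2 (0.994) followed. INSIG1 rose from 10.7 ± 0.420 CPM in vector to 30.3 ± 0.209 and 27.9 ± 1.06 on average, and SLC7A2 from 2.44 ± 0.182 to 12.6 ± 0.613 and 9.23 ± 0.425.

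Most like ALDH1A3 was UAP1 (r = 0.997), which makes UDP-N-acetylglucosamine, with 430 ± 20.6 CPM in vector, 159 ± 7.28 in SLC22A10_OE and 302 ± 8.60 in SLC22A15_OE. TIGAR (0.996), a fructose bisphosphatase, RAPH1 (0.996), NCEH1 (0.996), a cholesterol ester hydrolase, and CYR61 (0.995), a matricellular protein, followed. Each had its highest mean in vector and its lowest in SLC22A10_OE. Among the members themselves, the r with ALDH1A3 was -0.81 for ALDH1A1, -0.98 for ALDH5A1, -0.95 for ALDH3B1, -0.95 for ALDH7A1 and -0.93 for ALDH3A2, over the same 9 libraries. With ALDH1A1, which was high in both overexpressing groups, the r of the last 4 was lower in size, from 0.65 for ALDH3A2 to 0.80 for ALDH5A1. ALDH1B1 had -0.05 with ALDH1A1 and -0.36 with ALDH1A3.

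Around the other members, neighbours again moved in mixed ways. Next to ALDH3B1, UNC93B1 at 3.60 kb was higher in SLC22A10_OE (log2 fold change 0.71, limma adjusted p 3.20e-04), NDUFS8 at 1.34 kb too (0.22, adjusted p 0.0234), and TCIRG1 at 9.73 kb likewise (0.73, adjusted p 1.48e-04). Among all genes 34.7% were higher in SLC22A10_OE, and 20.4% passed in either direction in SLC22A15_OE. UNC93B1, NDUFS8 and TCIRG1 did not pass in SLC22A15_OE (limma adjusted p 0.124, 0.802 and 0.139), and ALDH3B1 did not either. By contrast PHAX, 4.85 kb from ALDH7A1, fell in SLC22A10_OE (-0.39, limma adjusted p 3.26e-05) where ALDH7A1 rose. MGST3, a glutathione transferase 0.42 kb from ALDH9A1, was higher in SLC22A10_OE (0.52, limma adjusted p 6.20e-05) and lower in SLC22A15_OE (-0.24, adjusted p 0.0462). TCTN3, 6.69 kb from ALDH18A1, did not pass in either (0.10 and -0.03, limma adjusted p 0.151 and 0.734).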

How the data were processed

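The authors deposited CPM per gene and library, and a table for each comparison with vector holding log2 fold changes, p-values and FDR, per the file headers. edgeR and the builds hg38 and mm9 are named in the submitters' processing notes without roles, and the aligner, the counting program, its strand setting and the annotation are not given in the sources at hand. Libraries were made with a strand-specific kit after ribosomal RNA depletion, per the labels' protocols. Whole reads were recovered from the CPM (100% of values within 0.1 read), and edgeR on them gave the log2 fold changes of the authors' table to within 2.82e-08.

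The main test was limma 3.58.1 (R 4.3.3) on log2(CPM + 1), with a mean trend, all 9 libraries in 1 fit, 3 contrasts, genes with at least 1 CPM in at least 3 libraries, and Benjamini-Hochberg adjustment over 14554 genes at 0.05. The 1 CPM added understates the fold changes of low genes. The fit was tested on simulated data. edgeR 4.0.16 and DESeq2 1.42.0 on the recovered reads, other pseudocounts and filters, centred libraries, 2 groups alone and left-out libraries were alternatives. No pair of libraries agreed within sampling noise (chi-square per degree of freedom 2.55 to 22.9). Gene lengths, positions and coding sequences came from GENCODE release 29 and promoters from RefSeq. Sequence identity was counted over aligned residues, without ALDH18A1.

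Members and gene lists were chosen with earlier results of these data known. Named beside the members were the other family genes, up to 4 genes a list and contrast by smallest adjusted p (or, with none past the threshold, the 2 highest in CPM), the nearest tested genes and the 5 genes most like ALDH1A1 and ALDH1A3. GPLD1 and CD14 are named for overlap and as a marker. Some genes that this rule names are not reported here. Columns of the CPM table give a group and a number, and the suffixes A1, A2 and B1 of the sample titles could not be matched to them.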

Additional observations from a re-analysis of the deposited data

How the results depend on the processing

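Of the 27 member results (9 genes, 3 comparisons), 19 kept their direction and their side of the threshold under every setting, among them all those of ALDH1A1, ALDH1A3, ALDH3A2 and ALDH3B1, and 8 changed under at least 1. Over all settings the log2 fold change of ALDH1A1 ran from 3.37 to 3.54 in SLC22A10_OE and from 2.99 to 3.09 in SLC22A15_OE. Without the 3 libraries low in mitochondrial ribosomal RNA, 4494 genes passed in SLC22A15_OE against vector, where all libraries gave 2966. The cause was not tested. Centring the libraries turned the sign of small changes, all short of the threshold once centred: in SLC22A10_OE ALDH1B1 to -0.072, ALDH9A1 to -0.010, ALDH18A1 to -0.036, ALDH3A1 to -0.081 and ALDH16A1 to -0.092, and DLST in SLC22A15_OE to -0.013. DLST in SLC22A15_OE was -0.016 without the 3 libraries low in mitochondrial ribosomal RNA. With 1 library left out at a time, values that changed sign ran in SLC22A10_OE from -0.055 to 0.10 for ALDH3A1 and from -0.047 to 0.13 for ALDH16A1. In SLC22A15_OE they ran from -0.034 to 0.21 for ALDH1L1, from -0.076 to 0.033 for ALDH1L2, from -0.0044 to 0.12 for ALDH4A1 and from -0.0059 to 0.031 for DLST. With 1 library left out, the genes past the threshold numbered 8909 to 9959 in SLC22A10_OE, 2074 to 3526 in SLC22A15_OE and 8251 to 9611 between them. No paired analysis was possible because the library numbers of the columns could not be matched to the suffixes of the sample titles. Depth limits ALDH1L1, ALDH8A1 and ALDH1A2, which had fewer than 70 reads in every library.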
